A study of Arabidopsis thaliana with 12 samples.

Results

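The class III homeodomain-leucine zipper (HD-ZIP III) genes that carry a site for the microRNAs miR165 and miR166 were followed across 3 mutants of the RNA processing machinery of Arabidopsis and their wild type. The family was taken by name and held 5 genes of the 32833 in the count table: PHABULOSA (PHB, AT2G34710), PHAVOLUTA (PHV, AT1G30490), REVOLUTA (REV, AT5G60690), ATHB15, also called CORONA or INCURVATA4 (AT1G52150), and ATHB8 (AT4G32880). The data were counts of read pairs per gene from poly(A) RNA of whole seedlings, in 12 libraries. There were 3 libraries each of *se-1*, a mutant of SERRATE (SE), of *cbp20* and of *cbp80*, mutants of the small and the large subunit of the nuclear cap-binding complex, and of the Col-0 wild type (WT). All plants had the Col-0 background, were 16 days old, grew under constant light with no treatment, and were kept on ice during collection before they were frozen. The *se-1* allele is a small deletion that leaves a partly working protein, and the labels name no allele for *cbp20* or *cbp80*. Each library came from a different pool of plants, so the spread between libraries of a genotype is that between pools.

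HD-ZIP III proteins are transcription factors with a homeodomain, a leucine zipper and a lipid-binding START domain. In the shoot they give the adaxial (upper) side of leaves its identity and are needed to form the shoot meristem, and in the vasculature they act in procambium and xylem. Their transcripts are cleaved under the guidance of miR165 and miR166, which are abundant on the abaxial (lower) side of the leaf. These microRNAs are cut by DICER-LIKE 1 from folded primary transcripts, a step in which SE takes part and which the cap-binding complex assists. The question put to the counts was how the transcripts of the 5 targets, of the microRNA loci and of the genes around them in leaf polarity differed between each mutant and WT, and between the mutants.

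The 2 mature microRNAs are shown first because the family is defined by them. The letters are those of the RefSeq annotation of TAIR10.1, 5′ to 3′, with the seed (bases 2 to 8) in capitals.
miR166: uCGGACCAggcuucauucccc
miR165: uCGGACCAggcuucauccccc
The 7 loci MIR166A to MIR166G gave the miR166 sequence and the 2 loci MIR165A and MIR165B gave the miR165 sequence. All 9 shared the seed, and miR165 differed from miR166 by U17C, counted from the 5′ end of the microRNA.

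The target site was read from the RefSeq transcript of each member as the stretch of 21 bases with the fewest mismatches to the reverse complement of miR166. Capitals mark the 7 bases that pair with the seed.
PHB: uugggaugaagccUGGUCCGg
PHV: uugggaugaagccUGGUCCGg
REV: cugggaugaagccUGGUCCGg
ATHB8: cugggaugaagccUGGUCCGg
ATHB15: cuggaaugaagccUGGUCCGg
The sites of PHB and PHV were the same, as were those of REV and ATHB8. With positions counted from the 5′ end of the site and the base of the perfect complement given first, PHB and PHV differed from the miR166 complement by G1U, G2U, A5G and A21G. REV and ATHB8 differed by G1C, G2U, A5G and A21G, and ATHB15 by G1C, G2U and A21G. Against the miR165 complement ATHB15 had 4 mismatches and each of the other genes had 3.

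Every site lay wholly in coding sequence and was split by an intron, with 11 bases in one exon and 10 in the next. For PHB, on the minus strand of chromosome 2 (gene chr2:14639323-14644355), the pieces were chr2:14642656-14642666 at the end of exon 4 and chr2:14642530-14642539 at the start of exon 5. For PHV, also on the minus strand (gene chr1:10796124-10801093), they were chr1:10799435-10799445 and chr1:10799330-10799339, again in exons 4 and 5. REV lies on the plus strand (gene chr5:24396981-24402195), with the pieces chr5:24398787-24398797 and chr5:24398889-24398898 in exons 4 and 5. ATHB15 lies on the minus strand (gene chr1:19409688-19414764), with the pieces chr1:19413075-19413085 and chr1:19412976-19412985 in exons 4 and 5. In ATHB8, on the minus strand (gene chr4:15863339-15868650), the pieces were chr4:15866964-15866974 in exon 5 and chr4:15866872-15866881 in exon 6. When the transcripts of 27440 genes were scanned in the same way, a window with at most 3 mismatches to either complement was found in 5 genes (0.0182%), which were the 5 members. At most 4 mismatches were found in 12 genes (0.0437%).

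Between 18565569 and 27068656 read pairs were counted per library, and every member had at least 591 counts in every library, so all 5 entered each test. In the *cbp20* libraries CBP20 was 0.34-fold of WT (log2 fold change -1.55, adjusted p = 5.37e-08, edgeR quasi-likelihood test). SE in *se-1* (log2 -0.06, adjusted p = 0.491) and CBP80 in *cbp80* (log2 -0.16, adjusted p = 0.174) did not pass the same test, so transcript levels could not check those labels. CBP80 was higher in *se-1* than in WT (log2 0.39, adjusted p = 0.00148). All levels below are CPM values, counts per 1000000 counted pairs, after TMM scaling of the libraries. All adjusted p-values are from the same quasi-likelihood test in edgeR, corrected by the Benjamini-Hochberg method over every gene tested, with 0.05 as the threshold. The 3 comparisons with WT share the same WT libraries, so their values are given side by side and their likeness is no independent evidence.

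In *se-1*, 4 of the 5 members rose and none fell. PHB and ATHB15 were both 2.00-fold higher, PHV was 1.71-fold higher and REV 1.15-fold higher, while ATHB8 did not pass the test. Of the 20491 genes tested, 33.8% were called in either direction, 17.6% upwards and 16.2% downwards. The median log2 fold change was 0.78 over the members and 0.00 over all tested genes.

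PHB, a main determinant of the adaxial side of the leaf, had 92.4, 104 and 96.3 CPM in the *se-1* libraries, against 47.5, 49.7 and 49.0 CPM in the WT libraries. No *se-1* library came near the WT range. The libraries of *se-1* lay wholly above those of WT for the 4 members called, as they did for 23.1% of all tested genes. The log2 fold change was 1.00 ± 0.06 (standard error, s.e.) with an adjusted p of 1.49e-07. ATHB15, which acts in the meristem and the vascular bundles, had 87.7, 92.5 and 87.8 CPM in *se-1*, against 46.5, 41.6 and 45.8 CPM in WT. The groups were again far apart, with a log2 fold change of 1.00 ± 0.06 (s.e.) and an adjusted p of 1.58e-07.

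PHV is the closest relative of PHB and shares its role in leaf polarity. It had 56.3, 65.9 and 56.8 CPM in *se-1*, against 36.6, 32.0 and 36.1 CPM in WT. All 3 *se-1* libraries were above all WT libraries, with a log2 fold change of 0.78 ± 0.08 (s.e., adjusted p = 9.38e-06).

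REV, which acts in lateral meristems and in the polarity of stems and leaves, had 35.0, 33.7 and 32.3 CPM in *se-1*, against 29.9, 28 and 30.2 CPM in WT. The groups did not overlap but were close, and the log2 fold change was 0.20 ± 0.06 (s.e., adjusted p = 0.0288). This call was lost in 6 of 13 alternative analyses, over which its adjusted p ran between 0.0185 and 0.184, so it rests on the setting chosen. The 6 were scaling by library size alone, DESeq2, and leaving out *se-1* replicate 1 (adjusted p = 0.0945), *se-1* replicate 2 (0.0608), WT replicate 1 (0.0536) or WT replicate 2 (0.104). Exons of REV overlap those of AT5G60700 over 1.89% of their length, where pairs were not counted.

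ATHB8, a gene of procambial cells that auxin switches on through MONOPTEROS, had 40.7, 38.2 and 36.9 CPM in *se-1*, against 35.2, 33.2 and 40.1 CPM in WT. The ranges overlapped. The log2 fold change was 0.10 with a 95% interval of -0.07 to 0.26 (adjusted p = 0.369), so a change of the size seen in PHB or PHV lay outside the interval.

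**Figure D1:**
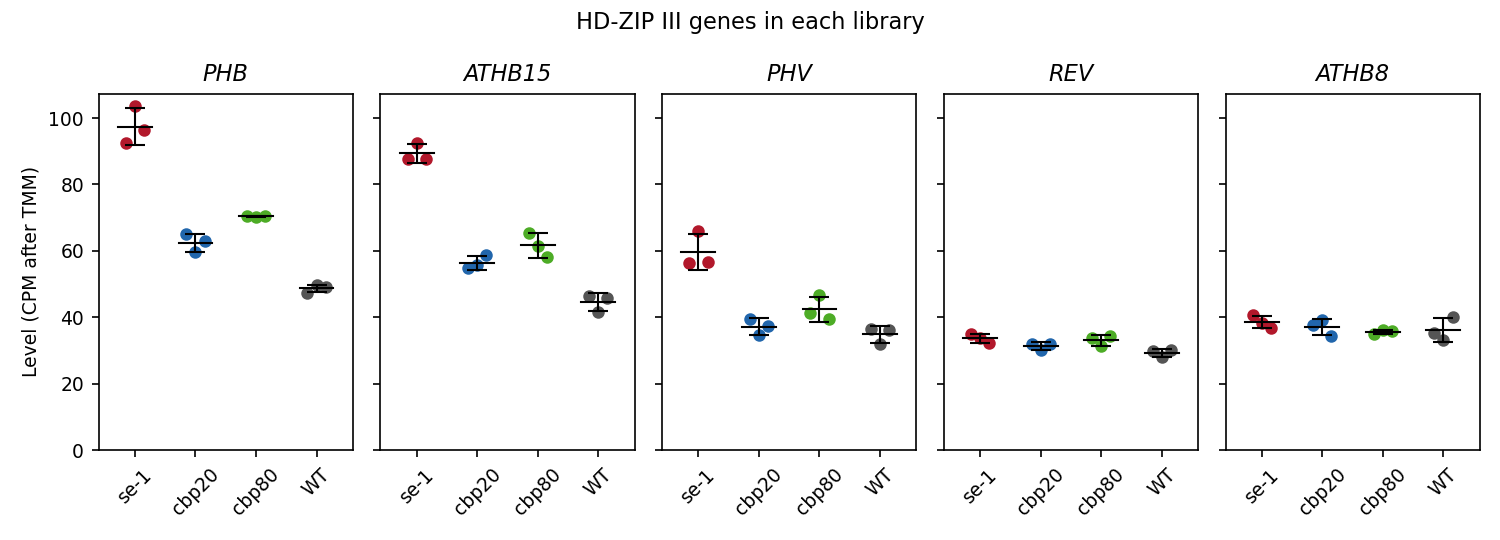
Level of each HD-ZIP III gene (vertical axis, CPM after TMM scaling) in the 3 libraries of each genotype (points), with the mean and SD as bars. PHB and ATHB15 in *se-1* lie between 87.7 and 104 CPM, above every other library, while the ATHB8 points of all 4 genotypes lie between 33.2 and 40.7 CPM.

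In *cbp20*, 2 of the 5 members rose, PHB and ATHB15, each by a smaller factor than in *se-1*. Of the 20475 genes tested, 19.7% were called, 10.2% upwards and 9.48% downwards. The median log2 fold change of the members was 0.10, against 0.00 over all tested genes.

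PHB had 65.0, 59.6 and 62.9 CPM in *cbp20*, against the 47.5 to 49.7 CPM of WT. ATHB15 had 54.8, 55.9 and 58.8 CPM in *cbp20*, against 41.6 to 46.5 CPM in WT. For both genes, but for no other member, the *cbp20* libraries lay wholly above the WT libraries, as they did for 17.9% of all tested genes. PHB was 1.28-fold higher (log2 0.36 ± 0.06 s.e., adjusted p = 0.000801) and ATHB15 1.26-fold higher (log2 0.34 ± 0.06 s.e., adjusted p = 0.00202).

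The other 3 members overlapped with WT in *cbp20*. PHV had 39.6, 34.6 and 37.5 CPM in *cbp20*, against 32.0 to 36.6 CPM in WT, a log2 fold change of 0.10 with an interval of -0.07 to 0.26. REV had 32.1, 30.1 and 32.1 CPM in *cbp20*, against 28 to 30.2 CPM in WT, a log2 fold change of 0.10 with an interval of -0.05 to 0.24. ATHB8 had 37.7, 39.2 and 34.4 CPM in *cbp20*, against 33.2 to 40.1 CPM in WT, a log2 fold change of 0.04 with an interval of -0.13 to 0.21. None of these passed the test (adjusted p = 0.414 for PHV, 0.348 for REV and 0.791 for ATHB8).

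In *cbp80*, 4 of the 5 members rose and none fell, with smaller changes than in *se-1* for PHB, PHV and ATHB15. The count was 3 whenever any 1 of the 6 libraries was left out, with PHV lost without *cbp80* replicate 2 and REV lost without each of the other libraries in turn. Of the 20543 genes tested, 38.7% were called, 20.1% upwards and 18.6% downwards. The median log2 fold change of the members was 0.28, against -0.01 over all tested genes.

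PHB had 70.4, 70.1 and 70.6 CPM in *cbp80*, against 47.5 to 49.7 CPM in WT, and was 1.45-fold higher (log2 0.53 ± 0.05 s.e., adjusted p = 3.07e-06). The 3 *cbp80* libraries of PHB differed from each other by under 1 CPM. For all 4 called members the *cbp80* libraries lay wholly above those of WT, which held for 24.8% of all tested genes. ATHB15 had 65.5, 61.4 and 58.1 CPM in *cbp80*, against 41.6 to 46.5 CPM in WT, and was 1.38-fold higher (log2 0.47 ± 0.07 s.e., adjusted p = 7.05e-05). PHV had 41.2, 46.7 and 39.5 CPM in *cbp80*, against 32.0 to 36.6 CPM in WT, and was 1.22-fold higher (log2 0.28 ± 0.08 s.e., adjusted p = 0.00892). Its highest value came from *cbp80* replicate 2, without which the adjusted p was 0.0528 (0.00264 to 0.0528 over the alternatives).

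REV had 33.9, 31.3 and 34.3 CPM in *cbp80*, against 28 to 30.2 CPM in WT. The log2 fold change was 0.17 ± 0.07 (s.e., adjusted p = 0.047). This call was lost in 8 of 13 alternatives (adjusted p between 0.0317 and 0.251), 5 of which left out *cbp80* replicate 1 (0.117), *cbp80* replicate 3 (0.145) or WT replicate 1 (0.0754), 2 (0.159) or 3 (0.0529). The other 3 were library size alone, no filter on low counts and DESeq2. ATHB8 had 35.0, 36.3 and 35.8 CPM in *cbp80*, inside the WT range of 33.2 to 40.1 CPM. Its log2 fold change was -0.02, with an interval of -0.17 to 0.14 (adjusted p = 0.865).

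**Figure D2:**
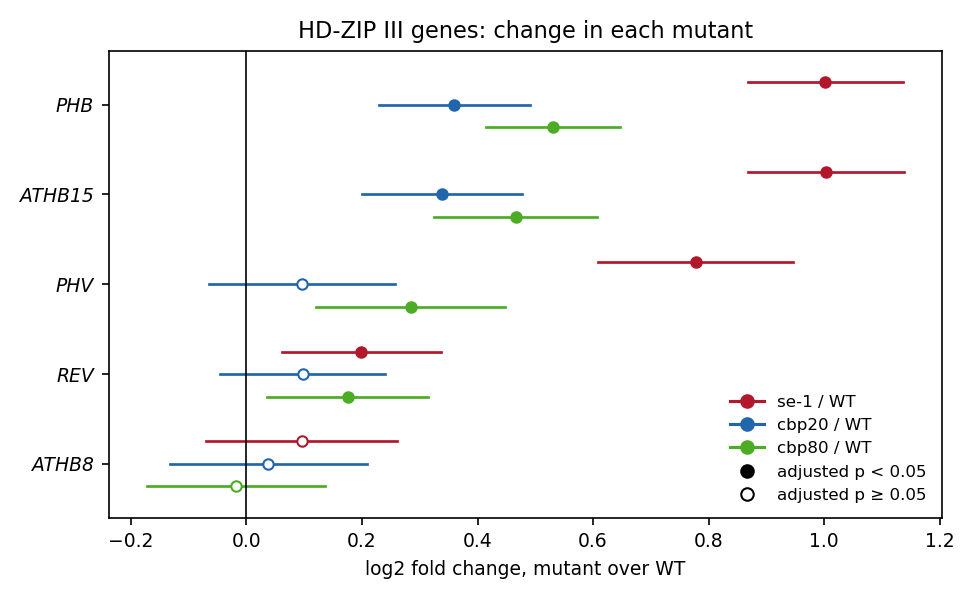
Log2 fold change of each HD-ZIP III gene in each mutant over WT (horizontal axis), with its 95% interval (line); filled points passed an adjusted p of 0.05. PHB and ATHB15 passed in all 3 mutants, with the *se-1* points at 1.00 clear of the others, and the 3 intervals of ATHB8 span 0.

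The mutants were also set against each other in a fit of all 12 libraries, in which WT has no part in the contrast. PHB, PHV and ATHB15 were higher in *se-1* than in *cbp20* and than in *cbp80*, while REV and ATHB8 did not pass either test. Against *cbp20*, 13.6% of 20882 tested genes were called, 7.4% upwards and 6.24% downwards in *se-1*. PHB was 1.56-fold higher in *se-1* than in *cbp20* (log2 0.64 ± 0.06 s.e., adjusted p = 1.05e-06), PHV 1.60-fold (log2 0.68 ± 0.08, adjusted p = 3.37e-05) and ATHB15 1.58-fold (log2 0.66 ± 0.06, adjusted p = 1.84e-06).

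Against *cbp80*, 11.4% of genes were called, 5.49% upwards and 5.95% downwards in *se-1*. PHB was 1.39-fold higher in *se-1* than in *cbp80* (log2 0.47 ± 0.06 s.e., adjusted p = 3.93e-05), PHV 1.41-fold (log2 0.49 ± 0.08, adjusted p = 0.000727) and ATHB15 1.45-fold (log2 0.54 ± 0.06, adjusted p = 2.64e-05). For REV the log2 difference between *se-1* and *cbp80* was 0.02 with an interval of -0.10 to 0.15, and between *se-1* and *cbp20* it was 0.10 with an interval of -0.03 to 0.23. For ATHB8 the corresponding values were 0.11 (-0.04 to 0.27) and 0.06 (-0.10 to 0.21).

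Between the mutants of the 2 cap-binding subunits, none of the 5 members was called by edgeR, where 10.2% of all genes were (5.99% higher and 4.17% lower in *cbp80*). PHB was closest to the threshold, with a log2 difference of *cbp80* over *cbp20* of 0.17 (interval 0.05 to 0.29, adjusted p = 0.0612, 0.0435 to 0.203 over the alternatives). It passed with a stricter filter on low counts (adjusted p = 0.0499) and without *se-1* replicate 2 (0.0435), which enters the fit but not the contrast. Without adjustment, edgeR put 2 members under 0.05, PHB and PHV, but the share of all genes under that value was not counted. PHV passed in none of the 19 alternatives (adjusted p = 0.126 to 0.548). PHB was the 1 member whose *cbp80* libraries were all above those of *cbp20*, which held for 14.4% of all genes. The interval of ATHB15 (-0.001 to 0.254) lay almost wholly above 0, and those of REV (-0.05 to 0.20) and ATHB8 (-0.21 to 0.09) leave room for small differences in either direction. In a test for any difference between the 4 genotypes, PHB, PHV, ATHB15 and REV passed, REV only just (adjusted p = 0.0499), against 42.2% of all genes, and ATHB8 did not (adjusted p = 0.529).

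Levels of different members were compared per kilobase of exon (CPM per kb), since longer transcripts give more fragments. In *se-1* the order was PHB (31 ± 1.8 CPM per kb, SD, n = 3), ATHB15 (24.7 ± 0.8), PHV (19.4 ± 1.8), ATHB8 (12.2 ± 0.6) and REV (9.5 ± 0.4), and the libraries of neighbours in that order did not overlap. In *cbp20* the order was PHB (19.9 ± 0.9), ATHB15 (15.6 ± 0.6), PHV (12.1 ± 0.8), ATHB8 (11.7 ± 0.8) and REV (8.9 ± 0.3), with PHV and ATHB8 overlapping. In *cbp80* it was PHB (22.4 ± 0.1), ATHB15 (17 ± 1.0), PHV (13.8 ± 1.2), ATHB8 (11.3 ± 0.2) and REV (9.4 ± 0.5), with no overlap between neighbours.

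In WT, PHB was also the highest (15.5 ± 0.4 CPM per kb) and REV the lowest (8.3 ± 0.3). Between them ATHB15 (12.3 ± 0.7), ATHB8 (11.4 ± 1.1) and PHV (11.3 ± 0.8) could not be ordered, because their libraries overlapped. The members therefore lay closer together in WT than in the mutants. The sum of the 5 levels was 96.7 ± 4.1 CPM per kb in *se-1* seedlings, 68.2 ± 1.6 in *cbp20* and 73.8 ± 1.4 in *cbp80*, against 58.9 ± 2.6 in WT (SD, n = 3 each).

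Ratios between members within a library do not depend on how libraries are scaled. The ratio of PHB to REV was 2.98 to 3.46 in *se-1*, 2.21 to 2.28 in *cbp20* and 2.32 to 2.52 in *cbp80*, against 1.79 to 2.00 in WT. The ratio of ATHB15 to ATHB8 was 1.88 to 2.12 in *se-1*, 1.24 to 1.49 in *cbp20* and 1.42 to 1.63 in *cbp80*, against 0.996 to 1.15 in WT. Neither of these ratios in any mutant overlapped with that in WT. Each sets a member that changed more over one that changed less, so it restates the fold changes above and is no separate support. The ratio of PHB to PHV was 1.54 to 1.66 in *se-1*, 1.61 to 1.69 in *cbp20* and 1.47 to 1.75 in *cbp80*, against 1.27 to 1.52 in WT, and overlapped with WT in *cbp80*. PHB made up 31.1% to 32.5% of the family sum in *se-1*, 28.5% to 29.7% in *cbp20* and 29.8% to 31% in *cbp80*, against 25.4% to 28.2% in WT. ATHB8 made up 11.9% to 13.6% in *se-1*, 15.9% to 18.6% in *cbp20* and 14.9% to 15.7% in *cbp80*, against 18.7% to 20.8% in WT. PHV made up 19.3% to 21.1% in *se-1*, 16.9% to 18.5% in *cbp20* and 17.7% to 20.3% in *cbp80*, against 18.5% to 20% in WT. The PHV share overlapped with WT in *se-1* and *cbp80*, and in *cbp20* its highest value equalled the lowest of WT to this rounding.

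**Figure D3:**
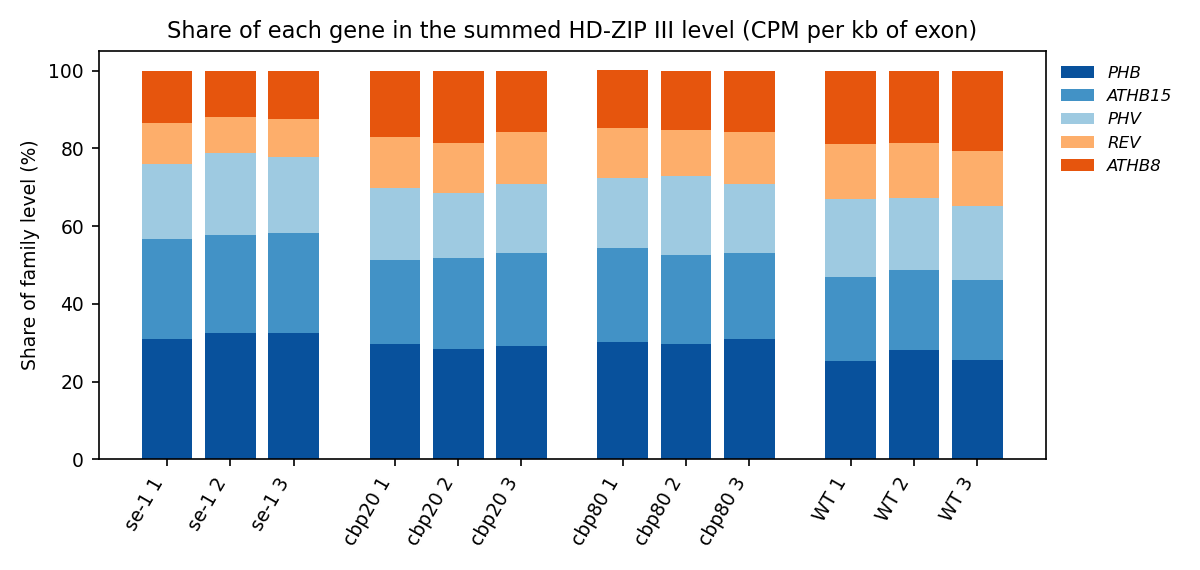
Share of each HD-ZIP III gene in the summed level of the family (vertical axis, percent of the summed CPM per kb of exon) in each of the 12 libraries (bars). The share of ATHB8 is 11.9% to 13.6% in the *se-1* bars and 18.7% to 20.8% in the WT bars.

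REV and ATHB8 carry the same site as each other, and PHB and PHV carry the same site as each other. In *se-1* the log2 fold changes were 0.20 and 0.10 for REV and ATHB8, and 1.00 and 0.78 for PHB and PHV. The pair REV and ATHB8 differs from the pair PHB and PHV only at the first base of the site. ATHB15, whose site is unlike all the others, had the same log2 fold change in *se-1* as PHB. Of the other 7 genes with a window of at most 4 mismatches to the microRNAs, 4 were tested. None of these rose in any mutant. HL fell in *se-1* (log2 -0.29, adjusted p = 0.00205), *cbp20* (-0.18, 0.0359) and *cbp80* (-0.17, 0.0284), and AT1G76590 fell in *cbp20* (-0.28, 0.03) and *cbp80* (-0.47, 0.00665). With so few genes these values are a description only.

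At the microRNA loci only pairs assigned to the annotated precursor were counted, and poly(A) RNA holds primary transcripts, not mature microRNAs. In *se-1* all 9 loci together had 388 counts over 3 libraries, in *cbp20* 90 and in *cbp80* 130, against 22 in WT. MIR166B had 67, 105 and 82 counts in the *se-1* libraries, 13, 22 and 9 in *cbp20* and 20, 23 and 15 in *cbp80*, against 1, 2 and 0 in WT. Every mutant library was above every WT library, which is a description only. MIR166B passed the low-count filter against WT through the mutant counts alone for *se-1* and *cbp80*, and was not tested for *cbp20*. Of all genes tested, 23.1% had the *se-1* libraries wholly above WT, against 17.9% for *cbp20* and 24.8% for *cbp80*. By CPM, MIR166B was 92.4-fold higher in *se-1* than in WT (95% counting interval 31.3 to 451), 14.2-fold in *cbp20* (4.54 to 71.3) and 19.5-fold in *cbp80* (6.35 to 97.3). These intervals cover counting error only and are wide because WT had 3 counts in all.

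MIR166A had 22, 36 and 24 counts in *se-1*, 4, 6 and 5 in *cbp20* and 5, 7 and 7 in *cbp80*, against 0, 2 and 2 in WT. It was 22.4-fold higher in *se-1* (8.41 to 84.1), 3.62-fold in *cbp20* (1.15 to 15) and 4.79-fold in *cbp80* (1.59 to 19.4). MIR166A and MIR166B passed the low-count filter in *se-1* against WT, and MIR166B in *cbp80* against WT, only through the counts of the mutants, so a difference followed from the filter. No p is given for these. In the fit of all libraries MIR166B was higher in *se-1* than in *cbp20* (log2 2.69, adjusted p = 8.9e-06) and than in *cbp80* (log2 2.23, adjusted p = 5.86e-05). MIR166A entered that fit only through *se-1*, so its log2 differences of 2.59 from *cbp20* and 2.20 from *cbp80* are a description. Neither passed between *cbp80* and *cbp20* (adjusted p = 0.697 for MIR166A and 0.486 for MIR166B).

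MIR166E had 6, 12 and 11 counts in *se-1*, 11, 4 and 5 in *cbp20* and 7, 10 and 10 in *cbp80*, against 1, 3 and 1 in WT, and was too low to be tested against WT. MIR165A had 3, 11 and 4 counts in *se-1*, 2, 3 and 3 in *cbp20* and 2, 2 and 13 in *cbp80*, against 2, 0 and 1 in WT. A single library held most of its counts in *se-1* and in *cbp80*. MIR166C (at most 4 counts in a library), MIR166F (at most 2) and MIR166D (1 count in 1 library) were at the floor of 3 counts or near it, and MIR165B and MIR166G had no count in any library. A count of 0 allows up to 0.111 to 0.162 CPM, depending on the library.

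**Figure D4:**
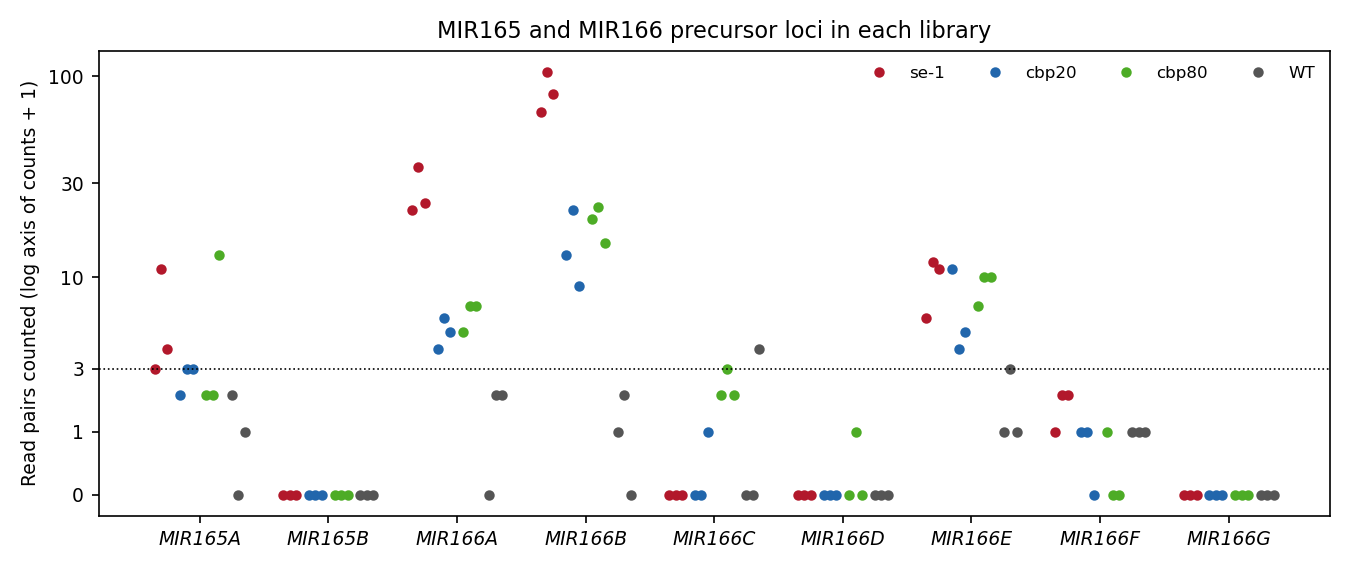
Read pairs counted on each MIR165 and MIR166 precursor locus (vertical axis, log axis of counts plus 1, labelled in counts) in the 3 libraries of each genotype (points); the dotted line is the floor of 3 counts. The *se-1* libraries stand out at MIR166A (22 to 36 counts) and MIR166B (67 to 105 counts), and most other loci lie at or under the floor.

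HD-ZIP III proteins switch on the LITTLE ZIPPER genes ZPR1 to ZPR4, whose short proteins pair with them and block DNA binding. ZPR1 was the only one of the 4 to pass the test, and it rose in all 3 mutants. It had 31.5, 31 and 33.4 CPM in *se-1*, 21.6, 21.5 and 21.4 CPM in *cbp20* and 22.8, 23.4 and 27.0 CPM in *cbp80*, against 15.6, 15.5 and 15.3 CPM in WT. No mutant library overlapped with WT, and the *se-1* libraries were above those of the other mutants. The *se-1* comparison with WT called 17.6% of all tested genes upwards and had 23.1% wholly above WT. For *cbp20* these shares were 10.2% and 17.9%, and for *cbp80* they were 20.1% and 24.8%. The *se-1* libraries lay wholly above those of *cbp20* for 14.9% of all tested genes, and above those of *cbp80* for 14.8%. The log2 fold change was 1.05 ± 0.07 in *se-1* (s.e., adjusted p = 1.98e-07), 0.48 ± 0.07 in *cbp20* (adjusted p = 0.000276) and 0.66 ± 0.08 in *cbp80* (adjusted p = 1.81e-05). ZPR1 was higher in *se-1* than in *cbp20* (log2 0.57, adjusted p = 3.04e-05) and than in *cbp80* (log2 0.39, adjusted p = 0.00114).

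ZPR2, ZPR3 and ZPR4 had between 0.311 and 3.58 CPM in every library. Their log2 fold changes in *se-1* were 0.94 for ZPR2 (interval 0.18 to 1.71, adjusted p = 0.057), 0.61 for ZPR3 (0.10 to 1.11, adjusted p = 0.0622) and 0.18 for ZPR4 (-0.31 to 0.68, adjusted p = 0.578). In the other mutants they were between 0.11 and 0.36, and the smallest adjusted p was 0.251. In *se-1*, ZPR2 passed without *se-1* replicate 1 (adjusted p = 0.0223), without WT replicate 1 (0.037) and with no filter (0.0443). ZPR3 passed there without replicate 2 of *se-1* (0.0266) or of WT (0.0241), with no filter (0.0417) and in the fit of all libraries (0.0292), and ZPR4 passed in *cbp20* without WT replicate 3 (0.0452). The wide intervals do not show that the 3 genes were unaffected.

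Of the genes that act on the family or on its microRNAs, AGO1 encodes the main slicer that miR165 and miR166 guide. It had 278, 320 and 285 CPM in *se-1*, 206, 209 and 204 CPM in *cbp20* and 193, 195 and 188 CPM in *cbp80*, against 217, 213 and 218 CPM in WT. AGO1 rose in *se-1* (log2 0.45, adjusted p = 0.000254), fell slightly in *cbp80* (log2 -0.17, adjusted p = 0.0232) and did not pass in *cbp20* (log2 -0.06, adjusted p = 0.499). The fall in *cbp80* lost its call without *cbp80* replicate 1 (0.0602), 2 (0.0549) or 3 (0.0834). AGO10, which binds these microRNAs and keeps them from AGO1, passed in no mutant (among the alternatives without a replicate block it passed in *cbp20* without *cbp20* replicate 3, adjusted p = 0.0466), with log2 fold changes of -0.01 in *se-1* (0.05 without *se-1* replicate 1), 0.19 in *cbp20* and 0.10 in *cbp80*. MONOPTEROS (MP), the auxin response factor upstream of ATHB8, did not pass either, with log2 fold changes of 0.24 in *se-1* (adjusted p = 0.0826), 0.19 in *cbp20* (0.149) and 0.09 in *cbp80* (0.457). Among the same alternatives it passed in *se-1* without *se-1* replicate 1 (0.0301) or WT replicate 3 (0.0339), with no filter (0.0491) and in the fit of all libraries (0.0437), and in *cbp20* without WT replicate 3 (0.044).

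Polarity genes moved in both directions. The adaxial gene AS2, for a LOB-domain protein, had 6.8, 7.2 and 5.4 CPM in *se-1*, 4.5, 5.4 and 3.8 CPM in *cbp20* and 6.5, 6.7 and 7.1 CPM in *cbp80*, against 3.0, 3.6 and 2.6 CPM in WT. It was 2.11-fold higher in *se-1* (adjusted p = 0.000239), 1.49-fold higher in *cbp20* (0.0311) and 2.20-fold higher in *cbp80* (1.94e-05). In *cbp20* the call was lost without *cbp20* replicate 1 (0.0736) or 2 (0.118) or WT replicate 1 (0.0871) or 3 (0.115). Its MYB partner AS1 had 102, 97.4 and 102 CPM in *se-1*, 151, 133 and 147 CPM in *cbp20* and 132, 119 and 130 CPM in *cbp80*, against 152, 163 and 146 CPM in WT. AS1 fell in *se-1* (log2 -0.61, adjusted p = 9.91e-06) and in *cbp80* (log2 -0.28, adjusted p = 0.00295), and not past the test in *cbp20* (log2 -0.10, adjusted p = 0.348). Exons of AS1 overlap another gene over 17.2% of their length.

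Among 8 abaxial genes of the KANADI and YABBY families, 3 rose and 1 fell in *se-1*, 4 rose and 1 fell in *cbp20*, and 4 rose and 2 fell in *cbp80*. Of all genes tested, 17.6% rose and 16.2% fell in *se-1*, 10.2% rose and 9.48% fell in *cbp20*, and 20.1% rose and 18.6% fell in *cbp80*. FIL, a YABBY gene of the abaxial side, had 46.2, 45.1 and 52.4 CPM in *se-1*, 41.2, 43.1 and 39.0 CPM in *cbp20* and 42.6, 39.0 and 42.6 CPM in *cbp80*, against 27.9, 28 and 24.0 CPM in WT. FIL, YAB2 and YAB3 rose in every mutant, with log2 fold changes between 0.29 and 0.85. KAN3 fell in every mutant (log2 -0.76 in *se-1* seedlings, -0.68 in *cbp20* and -0.89 in *cbp80*), while KAN2 and KAN4 passed in none. YAB5 rose in *cbp20* (log2 0.33) and *cbp80* (0.45), and KAN1 fell in *cbp80* (log2 -0.24). The call of KAN1, whose exons are overlapped over 19.3% of their length, was lost with DESeq2 (adjusted p = 0.0709) and without *cbp80* replicate 1 (0.143) or 2 (0.138) or WT replicate 2 (0.0981) or 3 (0.0889). The median log2 fold change of the 8 genes was 0.14 in *se-1* seedlings, 0.20 in *cbp20* and 0.28 in *cbp80*. Genes of both sides of the leaf were thus among those that rose, AS2 on the adaxial and FIL on the abaxial side.

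The HD-ZIP II genes are relatives of the family, several of which HD-ZIP III proteins activate. Of 10 genes, 3 rose and 3 fell in *se-1*, 2 rose and 2 fell in *cbp20*, and 3 rose and 2 fell in *cbp80*. The shares over all genes were 17.6% up and 16.2% down in *se-1*, 10.2% and 9.48% in *cbp20*, and 20.1% and 18.6% in *cbp80*. HAT1 rose in every mutant (log2 0.48 in *se-1* seedlings, 0.28 in *cbp20* and 0.35 in *cbp80*), and the shade-response genes ATHB2 (log2 -0.65, -0.40 and -0.72) and HAT2 (-0.70, -0.33 and -0.56) fell in every mutant. HAT3, which acts with HD-ZIP III proteins in leaf polarity, rose in *se-1* (log2 0.32, adjusted p = 0.024), and its partner ATHB4 fell there (log2 -0.70, adjusted p = 0.0303). HAT9 rose in *cbp20* (log2 0.45, adjusted p = 0.00178) and *cbp80* (0.66, 4.11e-06), and HAT22 rose in *se-1* (0.23, 0.0277) and *cbp80* (0.24, 0.0268). Several of these calls were weak. HAT22 lost its call with library size alone in *se-1* (0.146) and *cbp80* (0.107), with DESeq2 in *se-1* (0.0585), in *se-1* without *se-1* replicate 2 (0.0879) or 3 (0.0745) or WT replicate 3 (0.0896), and in *cbp80* without *cbp80* replicate 1 (0.123) or WT replicate 3 (0.102). HAT3 lost its call with library size alone (0.081) and without *se-1* replicate 1 (0.0646) or 3 (0.0692) or WT replicate 1 (0.0947) or 2 (0.0999), and ATHB4 with DESeq2 (0.109) and without *se-1* replicate 1 (0.0519), 2 (0.0793) or 3 (0.084) or WT replicate 1 (0.0751) or 3 (0.109). In *cbp20*, HAT1 lost its call with library size alone (0.0857) and without *cbp20* replicate 2 (0.141) or 3 (0.0914) or WT replicate 1 (0.173) or 2 (0.142). ATHB2 lost it without *cbp20* replicate 1 (0.0832) or 3 (0.0646) or WT replicate 3 (0.0923), and HAT2 without *cbp20* replicate 1 (0.0537). The medians were -0.10 in *se-1* seedlings, -0.01 in *cbp20* and 0.00 in *cbp80*, near those of all genes.

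**Figure D5:**
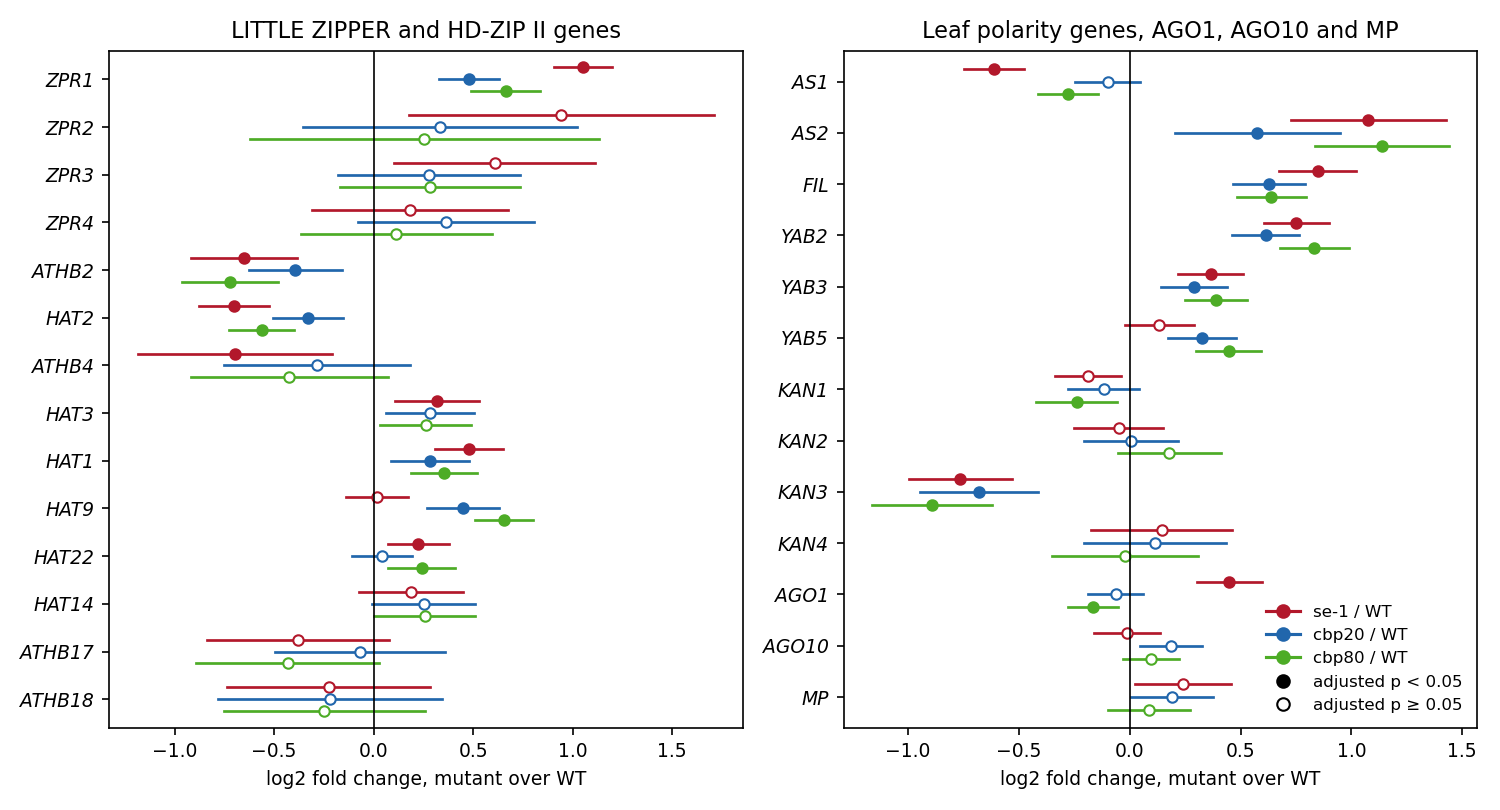
Log2 fold change in each mutant over WT (horizontal axes), with the 95% interval (lines), of LITTLE ZIPPER and HD-ZIP II genes (left) and of leaf polarity genes, AGO1, AGO10 and MP (right); filled points passed an adjusted p of 0.05. ZPR1, AS2, FIL, YAB2 and YAB3 lie to the right of 0 in all 3 mutants, and ATHB2, HAT2 and KAN3 to the left.

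Of 5 further genes known as direct targets of REV or ATHB8, 1 rose and 1 fell in *se-1*, none passed in *cbp20*, and 2 rose and 1 fell in *cbp80*. Against the shares of all genes (17.6% up and 16.2% down in *se-1*, 20.1% up and 18.6% down in *cbp80*), 1 of 5 in each direction in *se-1* is near the background. WRKY53, a senescence regulator bound by REV, rose in *se-1* (log2 0.83, adjusted p = 0.00653) and *cbp80* (log2 1.33, adjusted p = 1.57e-05). Its exons overlap another gene over 20.5% of their length. ACL5, the thermospermine synthase gene that ATHB8 activates in young xylem, fell in *se-1* (log2 -0.19, adjusted p = 0.0352) and *cbp80* (log2 -0.38, adjusted p = 0.0002), with 11.5% of its exons overlapped. In *se-1* the call of ACL5 was lost with DESeq2 (0.0952) and without *se-1* replicate 1 (0.139) or 3 (0.108) or WT replicate 1 (0.073), 2 (0.0573) or 3 (0.0871). BUD2, which makes a precursor for thermospermine, rose in *cbp80* (log2 0.60, adjusted p = 0.00252).

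Whole seedlings were sampled, so fewer cells of a type and less RNA per cell cannot be told apart, for the members and for every other gene. Marker lists of the shoot meristem, procambium and xylem, phloem, root and epidermis are therefore given beside the results. For the shoot meristem, 2 of 6 genes rose in *se-1*, 1 fell in *cbp20*, and 1 rose and 1 fell in *cbp80*, and the summed level was 27.9 to 34.3 CPM in *se-1*, 21.3 to 21.9 in *cbp20* and 19.8 to 22.8 in *cbp80*, against 23.7 to 25 CPM in WT. Only 4 of the 6 genes entered the test of *se-1* or *cbp80* against WT, and 3 entered that of *cbp20*. Among all genes tested, the *se-1* comparison called 17.6% upwards and 16.2% downwards. The *cbp20* comparison called 10.2% upwards and 9.48% downwards, and the *cbp80* comparison 20.1% and 18.6%. The 2 that rose in *se-1* were the organ boundary genes CUC2 (log2 1.93, adjusted p = 9e-05) and CUC1 (log2 1.94). CUC1 passed the low-count filter there only through its *se-1* counts (31, 29 and 42, against 12, 8 and 9 in WT). A difference of CUC1 followed from the filter, so no p is given for it. STM and KNAT1 did not pass in *se-1* (adjusted p = 0.783 and 0.0681). KNAT1, the gene that fell in *cbp20* (log2 -0.23), lost its call there without any 1 of the 6 libraries (adjusted p = 0.0516 to 0.137). In *cbp80*, KNAT1 was the gene that fell (log2 -0.36) and CUC2 the gene that rose (log2 1.04). Both kept these calls under every alternative, 13 for KNAT1 and 12 for CUC2. The defining genes WUS and CLV3 were at or under 0.14 CPM in every library, and STM had 2.27 to 3.58 CPM over the WT libraries and did not pass in any mutant.

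For procambium and xylem, 1 of 10 genes rose in *se-1*, 2 rose in *cbp20*, and 2 rose and 1 fell in *cbp80*. Of all genes tested, 17.6% rose in *se-1*, 10.2% rose in *cbp20*, and 20.1% rose and 18.6% fell in *cbp80*. The summed level was 247 to 261 CPM in *se-1*, 244 to 274 in *cbp20* and 244 to 258 in *cbp80*, against 237 to 246 CPM in WT. VND7, a switch of vessel formation, rose in all 3 mutants (log2 0.93 in *se-1* seedlings, 0.84 in *cbp20* and 1.13 in *cbp80*), while PXY and WOX4, which mark procambium as ATHB8 does, passed in none. Of the cellulose synthase genes of secondary walls, IRX1 rose in *cbp20* (log2 0.33) and *cbp80* (0.32), and IRX5 fell in *cbp80* (-0.32).

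For phloem, 1 of 4 genes fell in each mutant, PP2-A1, which codes for a lectin of the sieve tubes (log2 -3.94 in *se-1* seedlings, -1.13 in *cbp20* and -4.66 in *cbp80*, with 18.8% of its exons overlapped). The other phloem genes APL, SUC2 and SEOR1 passed in no mutant against WT. For this list, root and epidermis, the shares of all genes tested were 17.6% up and 16.2% down in *se-1*. They were 10.2% and 9.48% in *cbp20*, and 20.1% and 18.6% in *cbp80*. The phloem sum was 138 to 147 CPM in *se-1*, 163 to 173 in *cbp20* and 125 to 138 in *cbp80*, against 191 to 210 CPM in WT. For root, 1 of 6 genes rose and 2 fell in *se-1*, 2 rose in *cbp20* and 3 rose in *cbp80*, and the sum was 148 to 163 CPM in *se-1*, 150 to 169 in *cbp20* and 169 to 180 in *cbp80*, against 137 to 147 CPM in WT. For epidermis, 2 of 3 genes rose and 1 fell in *se-1*, 1 rose and 1 fell in *cbp20*, and 2 rose and 1 fell in *cbp80*, with sums of 819 to 836 CPM in *se-1*, 875 to 952 in *cbp20* and 910 to 940 in *cbp80*, against 772 to 826 CPM in WT. PDF1, an epidermal gene, rose in every mutant (log2 0.34 in *se-1* seedlings, 0.48 in *cbp20* and 0.50 in *cbp80*). CER6, of the same list, fell in every mutant (log2 -0.475 in *se-1* seedlings, -0.233 in *cbp20* and -0.235 in *cbp80*). In *cbp80* the call of CER6 was lost without *cbp80* replicate 3 (adjusted p = 0.0571). The root hair gene COBL9 fell in *se-1* (-0.52) and SHR, which patterns the root, rose in *cbp80* (0.24). Among the weaker calls of the last 2 lists, SHR in *cbp80* was lost with library size alone (adjusted p = 0.0552), and SCR and CASP1 in *cbp20*, EXPA7 in *se-1*, CER6 in *cbp20* and ATML1 in *cbp80* were lost when some single libraries were left out. The part of these lists in the changes of the 5 members was not tested.

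For each member, the genes with the most similar pattern were taken as those with the smallest root mean square (RMS) difference in log2 CPM, each gene centred on its own mean over the 12 libraries, among 15492 genes. For PHB the nearest was ATHB15 (RMS difference 0.08), followed by CSD1, a copper/zinc superoxide dismutase (0.08), and ZPR1 (0.09), where PHB itself varied by 0.36 around its mean. For ATHB15 the nearest were PHB (0.08), CSD1 (0.10) and the auxin response factor ARF4 (0.10). For PHV they were AT4G01883 (0.10), AT5G46780 (0.10) and ARF4 (0.11), with ATHB15 at rank 11 and PHB at rank 18.

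REV and ATHB8 varied little, by 0.09 around their means, so that their nearest genes are those that also varied little. For REV these were AT1G12440 (0.04), AT3G58140 (0.05) and ACLA-2, a subunit of ATP-citrate lyase (0.05). For ATHB8 they were AT4G11300 (0.05), SWI3B, a chromatin remodelling subunit (0.05), and DDB1A, a subunit of a ubiquitin ligase (0.05). The other members were far down these lists, the nearest being ATHB8 at rank 2257 for REV and REV at rank 1640 for ATHB8.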

How the data were processed

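Read pairs from poly(A) RNA of 12 seedling libraries were analysed, 3 per genotype as labelled, with none left out. Reads of rRNA and tRNA were discarded by the authors with Bowtie2 2.1.0, who aligned the rest to TAIR10 with TopHat2 2.1.1 and counted pairs per gene with featureCounts 1.5.0-p3 on Ensembl Plants release 34 exons. The unit of the deposited table is counts, whole numbers without normalization. Strand was not used, and pairs that aligned to several places or overlapped several genes were not counted, which can lower overlapped genes. The table also carries the authors' exon length per gene. A further 6 tables of the authors' own fold changes and p-values were not used.

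Each mutant was compared with WT on 6 libraries with edgeR 4.0.16 (R 4.3.3), on genes that reached 10 counts in 3 or more libraries, with TMM scaling, the quasi-likelihood test and Benjamini-Hochberg adjustment over all tested genes. Mutants were compared with each other in 1 fit of all 12 libraries. Standard errors were derived by dividing the size of a log2 fold change by the root of its F statistic. The test was run first on simulated counts. Depth was 18565569 to 27068656 pairs per library, with a floor of 3 counts. Reads were amplified without molecular identifiers, so counting intervals (exact, 95%) cover counting error only. Coordinates of TAIR10.1 were used after 32532 of 32548 paired genes (99.95%) were found to start and end as in the count table. Sites and microRNAs came from its RefSeq annotation.

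The genes named are all members, MIR165 and MIR166 loci, LITTLE ZIPPER genes, AGO1, AGO10, MP and the mutated genes, the called members of the other lists, the 3 genes most like each member, and a few further genes chosen after their values were seen (HL, AT1G76590, and list genes named as not called). Members and lists were chosen with earlier results of these data known. Alternatives were DESeq2 size factors within edgeR, library size alone, no filter, a filter of 50 counts, DESeq2 1.42.0, 1 fit of all libraries, a replicate block and leaving out each library.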

Additional observations from a re-analysis of the deposited data

Results flagged for a closer look

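For 5 genes the change in *se-1* differed from that in another mutant, by the direct test of *se-1* against that mutant in edgeR's fit of all 12 libraries. Against *cbp20*, the log2 difference was 0.64 for PHB, 0.68 for PHV, 0.66 for ATHB15, 2.69 for MIR166B and 0.57 for ZPR1. Against *cbp80*, it was 0.47 for PHB, 0.49 for PHV, 0.54 for ATHB15, 2.23 for MIR166B and 0.39 for ZPR1. In each case all 3 *se-1* libraries were above all 3 libraries of the other mutant. The same held for 14.9% of all tested genes against *cbp20* and for 14.8% against *cbp80*. MIR166A was 2.59 higher in *se-1* than in *cbp20* and 2.20 higher than in *cbp80* on the same scale, but it passed the low-count filter only through its *se-1* counts, so its difference followed from the filter and is a description. REV and ATHB8 did not differ past the threshold in either test. Single outlying libraries were not looked for, since the groups hold 3 libraries each.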

How the results depend on the processing

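PHB and ATHB15 in each mutant, PHV in *se-1* and ZPR1 in each mutant kept their direction and their side of the threshold under all 13 alternatives against WT, as did PHB, PHV and ATHB15 under all 19 in *se-1* against each other mutant. Of 480 alternative fold changes of members, 458 kept direction and side, 15 lost the call, 2 gained one and 5 changed sign. For the other named genes, 1421 of 1530 kept both, 80 lost the call, 21 gained one and 8 changed sign. The calls of REV depended most on the setting. In *se-1* its log2 fold change was 0.11 with library size alone (adjusted p = 0.184) and 0.20 with DESeq2 (0.0909), and 0.17 to 0.23 leaving out 1 library. In *cbp80* it was 0.10 with library size alone (0.251), 0.17 with no filter (0.0634) and 0.18 with DESeq2 (0.115), and 0.14 to 0.22 leaving out 1 library. PHV in *cbp80* ranged between 0.21 and 0.34 leaving out 1 library, and lost its call without *cbp80* replicate 2. Between *cbp80* and *cbp20*, 1 member in place of 0 was called with a filter of 50 counts (PHB, log2 0.17, adjusted p = 0.0499), and 0 or 1 leaving out 1 library (PHB, 0.14 to 0.20). The cause was not tested.

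Values near 0 changed sign. ATHB8 in *cbp20* was -0.007 with library size alone and -0.019 without WT replicate 2 (range -0.019 to 0.118 leaving out 1 library), and ATHB8 in *cbp80* was 0.061 without WT replicate 3 (-0.077 to 0.061). REV in *se-1* against *cbp80* was -0.001 without *se-1* replicate 1 and -0.018 without *cbp80* replicate 2 (-0.018 to 0.052). AGO10 in *se-1* was 0.047 without *se-1* replicate 1, 0.002 without WT replicate 2 and 0.013 without WT replicate 3 (-0.061 to 0.047). In *cbp80*, ZPR2 was -0.006 without *cbp80* replicate 3 (-0.006 to 0.587). ZPR4 was -0.005 without *cbp80* replicate 2, -0.002 without WT replicate 1 and -0.013 without WT replicate 2 (-0.013 to 0.388), and MP was -0.019 without WT replicate 1. Ranking likeness by Pearson's r shared 1, 0, 0, 2 and 1 of the 3 nearest genes for PHB, PHV, REV, ATHB15 and ATHB8.

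Library size alone moved the median log2 fold change of all genes by under 0.1 but changed the split of calls to 2649 up and 5074 down in *se-1* (3602 and 3319 with TMM), 1676 and 2608 in *cbp20* (2090 and 1941), and 3130 and 5529 in *cbp80* (4125 and 3830). The series pairs libraries by replicate number for comparison without naming a shared batch. Deviations of same-numbered libraries correlated between -0.07 and 0.15 (median 0.04). Those of differently numbered libraries correlated between -0.14 and 0.14 (median -0.005). Among the 3 libraries of another genotype, a library was most like the one with its own number in 20 of 36 cases. These values do not settle whether the numbers mark pairs, and the main fit did not use them as pairs. With the replicate block, 7062, 4646 and 7814 genes were called in *se-1*, *cbp20* and *cbp80* (6921, 4031 and 7955 without), and no call of a member changed. Among the other named genes it added calls for MP in *se-1* (log2 0.24, adjusted p = 0.0107) and, in *cbp20*, AGO10 (0.19, 0.0356) and CBP80 (0.23, 0.0453), and took none away. MIR165 and MIR166 loci are limited by depth, and MIR166A and MIR166B could not be fitted in settings where the filter removed them.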
